A study of Mus musculus with 9 samples.

Results

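Ribosomal proteins are the protein parts of the 2 kinds of ribosome a mouse cell holds. The cytosolic ribosome translates mRNA made in the nucleus and has a large subunit (RPL proteins), a small subunit (RPS proteins) and a stalk of acidic P proteins that recruits elongation factors. The mitochondrial ribosome is built inside mitochondria, from nuclear-encoded MRPL and MRPS proteins, and translates the few mRNAs of mitochondrial DNA, which code for subunits of the respiratory chain. Growing cells make new cytosolic ribosomes in the nucleolus. The mRNAs of cytosolic ribosomal proteins are known for a run of pyrimidines at their 5′ end, the TOP motif, through which mTOR signalling governs their translation. An array reads the level of these mRNAs, not their translation and not the number of ribosomes.

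The genes were chosen by symbol. A gene was taken as cytosolic when the array's annotation named it Rpl or Rps plus a number, with an optional final a, l or x, or Rplp0, Rplp1, Rplp2 or Rpsa, and as mitochondrial when it was named Mrpl or Mrps plus a number, with an optional final letter. Kinases such as those of the Rps6k family were left out. Of 18193 genes with a probe set of their own, 46 were cytosolic and 76 mitochondrial, 122 in all. RefSeq lists 81 mouse protein-coding symbols of the cytosolic form and 78 of the mitochondrial form, so that the mitochondrial family was nearly complete and the cytosolic one was not. A further 110 probe sets carried a cytosolic ribosomal protein beside other symbols, and 4 a mitochondrial one. They were left out of the gene counts because their signal cannot be given to 1 gene.

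RNA was measured on 9 arrays, 3 biological replicas (A, B, C) of each of 3 groups. yNSCs are neural stem-like cells made from mouse cortical neurons. The neurons had received lentiviral rtTA and a doxycycline-inducible wild-type YAP, a transcriptional coactivator of the Hippo pathway, had been moved to NSC medium with doxycycline, and the sphere-forming cells that emerged were passaged without the drug. NSCs are native murine neural stem cells grown in the same DMEM/F12 medium, which holds N2 supplement, heparin and the growth factors EGF and bFGF. Neurons are primary cortical cultures kept in Neurobasal with B27, glutamine and AraC, a drug that kills dividing cells, and carry no transgene. The neuron dishes are bulk primary cultures in another medium, so the effects of cell state, medium and AraC cannot be told apart.

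All values below are log2 RMA signals, and a difference of 1 is a doubling. Differences are yNSCs minus neurons, NSCs minus neurons or yNSCs minus NSCs. A gene was called higher or lower at a limma adjusted p (Benjamini-Hochberg over 18193 genes) under 0.05. With 3 arrays against 3, an exact permutation test of 1 gene cannot give a p below 0.1, so calls rest on the model's spread over all 9 arrays. Lack of overlap between the arrays of different groups was common. It held for 12186 of 18193 genes in yNSCs against neurons, 12567 in NSCs against neurons and 9381 in yNSCs against NSCs. Members named for a large difference were picked partly for it, so it gives them no further support. In bulk RNA, fewer cells of a type and less RNA per cell cannot be told apart. The 5 neuron markers (mean log2 signal 5.48 to 5.64 in yNSCs, 5.13 to 5.36 in NSCs and 11.02 to 11.13 in neurons) and the 5 neural stem cell markers (10.16 to 10.19 in yNSCs, 9.76 to 9.98 in NSCs and 8.41 to 8.46 in neurons) followed the labels, although the stem cell markers were well above background in neuron cultures too. The NSC array A stood apart from its replicas, with 162 genes over 2-fold from the mean of those replicas, against at most 30 for any other array. Its values are given below where it bears on a result.

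Short stretches of sequence around the start of transcription cover the site where the TOP motif lies. RefSeq starts (GRCm38.p6) were found for 40 of the 46 cytosolic and 67 of the 76 mitochondrial genes. A tract of a C followed by at least 4 further pyrimidines, beginning exactly at the annotated start, was present for 8 of the 40 cytosolic genes (20%), for 0 of the 67 mitochondrial genes, and for 813 of 27025 genes in the table (3.01%). The 8 were Rpl14, Rpl35, Rpl38, Rplp2, Rps10, Rps18, Rps27 and Rps6. Annotated starts can be off by a few bases, and a tract that begins beside the start was not counted. Most of the 40 cytosolic genes had no such tract, Rpl22 among them. The following are the 15 bases before and the first 15 bases after the start, written 5′ to 3′ on the gene's own strand. They come from 4 of the 8 cytosolic genes with the tract and from 2 mitochondrial genes, all described below. Capitals mark the tract.
Rps6 (chr4:86857353-86857382, minus strand): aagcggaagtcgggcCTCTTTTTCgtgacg
Rpl14 (chr9:120571502-120571531, plus strand): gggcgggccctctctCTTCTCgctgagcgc
Rplp2 (chr7:141447636-141447665, plus strand): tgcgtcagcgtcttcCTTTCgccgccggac
Rps27 (chr3:90213634-90213663, minus strand): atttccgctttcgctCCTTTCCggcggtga
Mrps6 (chr16:92058321-92058350, plus strand): tgctttcgccgtccgggagctgaccggccg
Mrpl12 (chr11:120484622-120484651, plus strand): agctcgcctcctcccggatagagcgtcgct
The tract ran for 9 bases in Rps6, 7 in Rps27, 6 in Rpl14 and 5 in Rplp2. These genes differed from each other in the arrays: Rps6 and Rpl14 were higher in both stem cell groups than in neurons, Rps27 only passed the test in yNSCs, and Rplp2 only in NSCs. That difference between yNSCs and NSCs was itself called for Rps27 and not for Rplp2 (adjusted p = 0.195). Over the 300 bases from 250 before to 50 after the start, motifs were sought on either strand. The ETS-family motif CCGGAAG lay in 20 of 40 cytosolic genes (50%) and 25 of 67 mitochondrial genes (37.3%), against 9.93% of the 27025 genes. AAGATGGCG, the YY1 motif, lay in 2 cytosolic genes (5%) and 8 mitochondrial genes (11.9%), against 1.64% of the 27025. TATAAA lay in 5 of each family (12.5% and 7.46%), against 15.7% of the 27025. That set was not limited to genes measured on the arrays. A match describes the letters of the window and is not evidence of binding.

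Transcripts of both families were higher in yNSCs and NSCs than in neurons, and the mitochondrial family had the larger median difference. Cytosolic members were mostly read by brighter probe sets (median member mean 12.91, against 9.32 for mitochondrial ones), and the part of this in that contrast was not tested. In yNSCs 33 of 46 cytosolic members were called higher than in neurons and 1 lower, beside 34.6% of all genes higher and 27.9% lower. The median difference was 0.49, against -0.01 over all genes. Of the 76 mitochondrial members 68 were higher and 0 lower, with a median of 0.91. In NSCs 32 cytosolic members were higher than in neurons and 3 lower (median 0.39), beside 33.3% of all genes higher and 34.1% lower (median -0.07). Of the mitochondrial members 62 were higher in NSCs and 1 lower (median 0.75). The 2 comparisons share the neuron arrays and are not independent. As shares of each family, 71.7% of cytosolic and 89.5% of mitochondrial members were higher in yNSCs, and 69.6% and 81.6% in NSCs.

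The 9 arrays separated in the same way when each member was centred on its own mean over them. The cytosolic median of an array lay between 0.16 and 0.19 in yNSCs, between 0.11 and 0.14 in NSCs and between -0.32 and -0.27 in neurons. For the mitochondrial family the array medians were 0.33 to 0.42 in yNSCs, 0.09 to 0.31 in NSCs and -0.59 to -0.52 in neurons. No stem cell array overlapped a neuron array in either family, and NSC array A was the highest of its group at 0.31 in the mitochondrial one. The yNSC arrays lay above every NSC array in both families, with little room between the nearest ones. The same order held for the median over all genes, at -0.01 to 0.04 in yNSCs and -0.07 to -0.02 in NSCs. It is therefore not particular to these families.

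**Figure D1:**
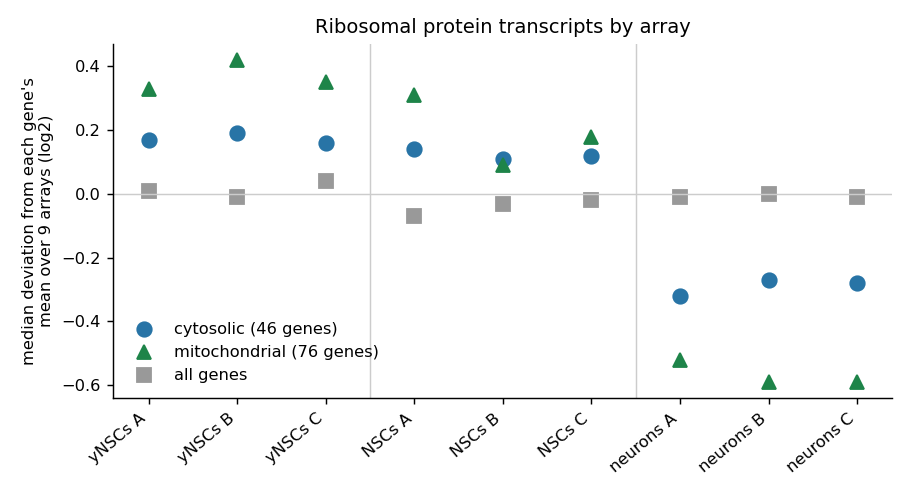
Median centred log2 signal of the cytosolic and the mitochondrial ribosomal proteins in each array, beside that of all genes, with 1 point per array and the groups in the order yNSCs, NSCs, neurons. In both families the 6 stem cell arrays sit above 0 and the 3 neuron arrays below it, between -0.32 and -0.27 for the cytosolic and between -0.59 and -0.52 for the mitochondrial family.

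The counts depend on how arrays are scaled to each other. Subtracting each array's median over bright genes other than ribosomal proteins moved all genes by -0.3 in yNSCs against neurons and by -0.25 in NSCs against neurons. The split of cytosolic members was then 20 higher and 5 lower in yNSCs (median 0.19) and 20 higher and 6 lower in NSCs (median 0.13). The mitochondrial family had 62 higher and 0 lower in yNSCs (median 0.61), and 50 higher and 6 lower in NSCs (median 0.5). Relative to the median of all genes the cytosolic family was at 0.49 in yNSCs and 0.46 in NSCs with the deposited values and at 0.5 and 0.46 with that scaling, and the mitochondrial family at 0.92 and 0.83 with both. Subtracting 1 value per array moves all genes alike, so it cannot change that position. Quantile normalization again, which can, gave 0.28 in yNSCs and 0.29 in NSCs for the cytosolic family and 0.57 and 0.49 for the mitochondrial family. Total RNA per cell was not measured.

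Several other features of the cultures also differed between groups, not all of them along the split of stem cells from neurons. The 3 dividing-cell markers measured were all higher in both stem cell groups, with mean log2 signals of 9.88 to 10.05 in yNSCs, 10.4 to 10.97 in NSCs and 5.92 to 6.31 in neurons. All 8 microglia and macrophage markers were lower in both, with means of 4.64 to 4.75 in yNSCs, 3.87 to 3.94 in NSCs and 8.3 to 8.86 in neurons, so that their transcripts were clearly present in neuron cultures. The 4 astrocyte markers averaged 9.58 to 9.77 in yNSCs, 6.21 to 7.1 in NSCs and 9.29 to 9.57 in neurons. Against neurons 2 of them were higher and 1 lower in yNSCs, and 1 was higher and 3 lower in NSCs. Of 3 oligodendrocyte and precursor markers 2 were lower in both (Mbp by -2.55 and -2.37, Pdgfra by -5.57 and -2.46) and Mog was near background, with list means of 3.51 to 3.64 in yNSCs, 4.57 to 4.82 in NSCs and 6.24 to 6.36 in neurons. Of 3 fibroblast markers 2 were lower in yNSCs and 1 in NSCs, with means of 4.01 to 4.22 in yNSCs, 4.15 to 4.38 in NSCs and 5.27 to 5.45 in neurons. The 3′ over 5′ log2 difference of the Actb control probe sets was 0.19 to 0.31 in yNSCs, 0.56 to 0.7 in NSCs and 0.03 to 0.21 in neurons, and that of Gapdh -0.09 to -0.04 in yNSCs, 0.11 to 0.28 in NSCs and -0.19 to -0.17 in neurons. The part of these features in the results was not tested.

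Among cytosolic proteins the 2 subunits gave like counts. Of 20 large subunit members 17 were higher in yNSCs than in neurons and 0 lower (median 0.57), and 15 were higher in NSCs and 1 lower (median 0.39). Of 20 small subunit members 14 were higher and 0 lower in each comparison, with medians of 0.49 in yNSCs and 0.42 in NSCs. The P stalk was represented by Rplp0 and Rplp2. Rplp0, the scaffold of the stalk and a common reference gene in quantitative PCR, read 13.4, 13.46 and 13.39 in yNSCs, 13.38, 13.38 and 13.37 in NSCs, and 12.86, 12.92 and 12.92 in neurons. The stem cell groups did not overlap the neurons, and the differences were 0.52 (SE 0.0887, limma adjusted p = 0.000252) in yNSCs and 0.48 (adjusted p = 0.00045) in NSCs. Rplp2, which binds that scaffold as a dimer with Rplp1, differed by 0.19 in yNSCs (adjusted p = 0.0991) and by 0.35 in NSCs (adjusted p = 0.00515).

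Most cytosolic members were read by very bright probe sets, and the widest differences lay among the few dimmer ones. Of the 46, 33 averaged a log2 signal of at least 12 over the 9 arrays. Among these 25 were higher in yNSCs and 0 lower, with a median of 0.46 and a largest difference of 1.17 (Rpl22), and 26 were higher in NSCs and 0 lower, with a median of 0.41 and a largest difference of 1.13 (Rpl8). Dimmer probe sets of the same genes differed by more in some cases. In yNSCs against neurons Rpl13a was 0.32 higher by its chosen probe set and 0.78, 1.39 and 2.04 higher by the others, Rps9 was 0.52 higher and 1.07 and 2.06 by the others, and Rps24 was 0.19 higher (not called) and up to 2.12 by another. Others differed by less in that comparison: those of Rps3 by 0.26 and 0.01 beside 0.85, and 1 of Rpl22 by 0.77 beside 1.17. The 13 members under that level ran from -1.11 to 2.47 in yNSCs, with 8 higher and 1 lower (median 0.6). In NSCs they ran from -1.81 to 2.91, with 6 higher and 3 lower and a median of 0.24, below that of the bright members. Array signal flattens toward the top of its range, and how far that narrowed the bright members' differences was not tested. No mitochondrial member reached an average of 12.

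Rpl22, an RNA-binding large subunit protein that is dispensable for general translation, read 13.14, 13.13 and 13.13 in yNSCs, 12.84, 12.96 and 12.97 in NSCs, and 11.91, 11.99 and 11.99 in neurons. It was the most raised of the bright members in yNSCs (1.17, SE 0.0917, limma adjusted p = 2.47e-07), and was 0.96 higher in NSCs than in neurons (adjusted p = 1.43e-06). Its other 2 probe sets were higher in both as well, by 1.23 and 0.77 in yNSCs and by 1.03 and 0.43 in NSCs. Rpl10a, a large subunit protein, read 13.11, 13.17 and 13.07 in yNSCs, 13.24, 13.18 and 13.14 in NSCs, and 12.17, 12.34 and 12.23 in neurons. Its differences were 0.87 in yNSCs and 0.94 in NSCs, with no overlap between stem cells and neurons. Rpl8 was 1 log2 unit higher in yNSCs and 1.13 higher in NSCs. Of the small subunit, Rps18 was 0.99 and 0.94 higher in yNSCs and NSCs, and Rps3, which sits at the mRNA entry channel, 0.85 and 0.66. Rpsa, a small subunit protein also known as the laminin receptor, was 0.41 and 0.51 higher.

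A few dimmer probe sets carried the widest differences. Rps6, the small subunit protein phosphorylated by S6 kinases downstream of mTOR, read 9.51, 9.63 and 9.43 in yNSCs, 9.22, 9.24 and 9.31 in NSCs, and 7.56, 7.49 and 7.52 in neurons. That is 2 log2 units higher in yNSCs (SE 0.0955, limma adjusted p = 2.9e-09) and 1.73 higher in NSCs (adjusted p = 9.21e-09), with no overlap. Its other probe set lay at 3.33 to 3.74 in all arrays and was not called. Rpl14, of the large subunit, read 7.89, 7.94 and 7.56 in yNSCs, 8.47, 8.22 and 8.67 in NSCs, and 5.86, 5.37 and 5.39 in neurons. Its differences from neurons were 2.26 in yNSCs and 2.91 in NSCs, the widest of any cytosolic member in NSCs. Rps25, known for its part in initiation at viral internal ribosome entry sites, was 2.18 higher in yNSCs and 1.75 higher in NSCs, and Rpl37 was 1.42 and 1.33 higher. Rps25 overlaps Ccdc84 in the RefSeq annotation. The Ccdc84 probe set differed by 0.21 in yNSCs (adjusted p = 0.15) and by 0.25 in NSCs (adjusted p = 0.0772).

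The 4 paralogs differed among themselves: against neurons, yNSCs had 1 higher and 1 lower, and NSCs 1 higher and 2 lower. Rps27l, a near copy of Rps27 known in human cells as a p53 target, read 12.59, 12.59 and 12.57 in yNSCs, 12.54, 12.51 and 12.59 in NSCs, and 10.02, 10.1 and 10.23 in neurons. At 2.47 higher in yNSCs (SE 0.0951, limma adjusted p = 4.54e-10) and 2.43 higher in NSCs (adjusted p = 4.62e-10) it had the widest difference of any cytosolic member in yNSCs. Its 2 further probe sets differed by 2.56 and 2.44 in yNSCs and by 2.57 and 2.48 in NSCs. Its parent Rps27 read 6.78, 7.11 and 7 in yNSCs, 6.24, 6.35 and 6.54 in NSCs, and 6.34, 6.43 and 6.33 in neurons. Rps27 was 0.6 higher in yNSCs than in neurons (adjusted p = 0.000728) and 0.01 higher in NSCs (adjusted p = 0.945), where the arrays overlapped.

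Rps4l, an Rps4x-like gene, moved the other way. It read 6.51, 6.48 and 6.32 in yNSCs, 6.17, 6.21 and 6.38 in NSCs, and 7.5, 7.57 and 7.58 in neurons. It was the single cytosolic member lower in yNSCs (-1.11, SE 0.102, limma adjusted p = 1.04e-06) and was also lower in NSCs (-1.3, adjusted p = 2.4e-07). Its parent Rps4x, the X-linked small subunit gene, was higher in both, by 0.46 and 0.44. Rpl3l, which replaces Rpl3 in muscle, and Rpl39l, known from testis, stayed near background in all 3 groups, as did the probe set that stood for Rps16. Rps16 was nonetheless called higher in yNSCs than in neurons (0.39, adjusted p = 0.0136) and is 1 of the 33. Rpl39l was called lower in NSCs than in neurons (-0.32), between signals that were both near background.

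Not every cytosolic transcript was called higher in stem cells. In yNSCs 12 cytosolic members were not called against neurons, with differences between -0.29 and 0.27, and in NSCs 11 were not, between -0.41 and 0.24. Rps28, at the mRNA exit channel, read 13.43, 13.5 and 13.43 in yNSCs, 13.51, 13.5 and 13.5 in NSCs, and 13.51, 13.5 and 13.48 in neurons, which overlapped throughout. Rps29 differed by -0.18 in yNSCs (adjusted p = 0.112) and by 0.02 in NSCs (adjusted p = 0.881). Rps2, Rps7, Rpl37a and Rpl39 were also not called in either comparison. Other probe sets of a pair of them were: the second of Rps7 was 0.29 higher in yNSCs and 0.36 higher in NSCs, and 1 of Rpl37a was 0.39 higher in yNSCs and another 0.31 higher in NSCs. Apart from Rpl39, the probe sets that stood for these genes were bright, with signals of at least 12.92 in every array. Where signal flattens toward the top of its range, a like reading does not show a like transcript level.

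**Figure D2:**
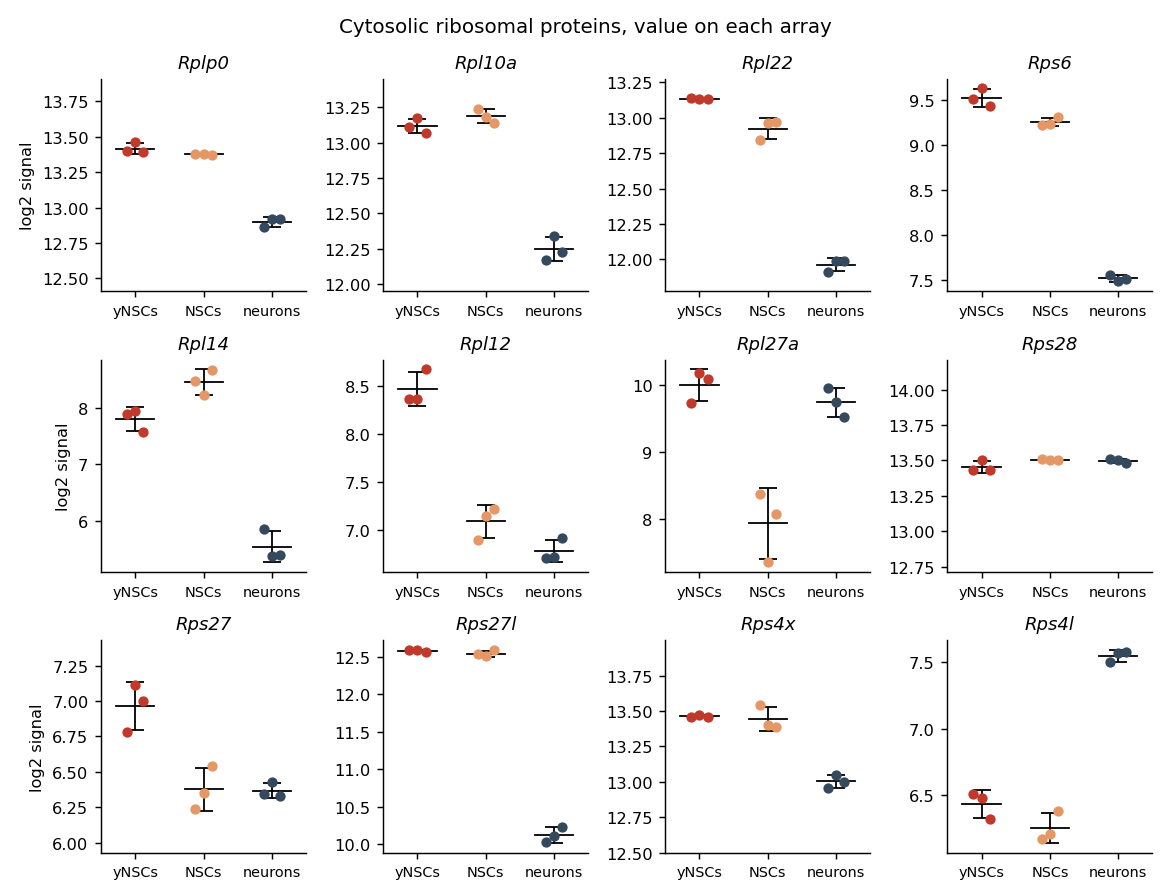
Log2 signal of 12 cytosolic ribosomal proteins in each array, with 1 point per array, lines for group means, error bars of 1 SD (n = 3) and the groups in the order yNSCs, NSCs, neurons; each gene has its own scale. Rps27l sits at 12.51 to 12.59 in stem cells and at 10.02 to 10.23 in neurons, Rps4l is lower in stem cells than in neurons, and the points of Rps28 overlap.

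The mitochondrial family was higher in stem cells in both of its subunits. Of 47 large subunit members 44 were higher in yNSCs than in neurons and 0 lower (median 0.92), and 39 were higher in NSCs and 1 lower (median 0.78). Of 29 small subunit members 24 were higher in yNSCs (median 0.87) and 23 in NSCs (median 0.65), with 0 lower in either. All 76 members had a positive difference in yNSCs, from 0.09 to 3.12. At least 2-fold, 32 of 76 mitochondrial and 8 of 46 cytosolic members were higher in yNSCs, beside 18.3% of all genes, and 25 and 6 in NSCs, beside 18.6%. The mitochondrial family was above the share of all genes in both comparisons, and the cytosolic family in neither. The families also differ in brightness: 33 of the 46 cytosolic members and 0 of the 76 mitochondrial ones averaged a log2 signal of at least 12. The part of signal flattening in this contrast between families was not tested. The spread between replicate arrays was small: the median SD of a mitochondrial member was 0.06 in yNSCs, 0.14 in NSCs and 0.09 in neurons.

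**Figure D3:**
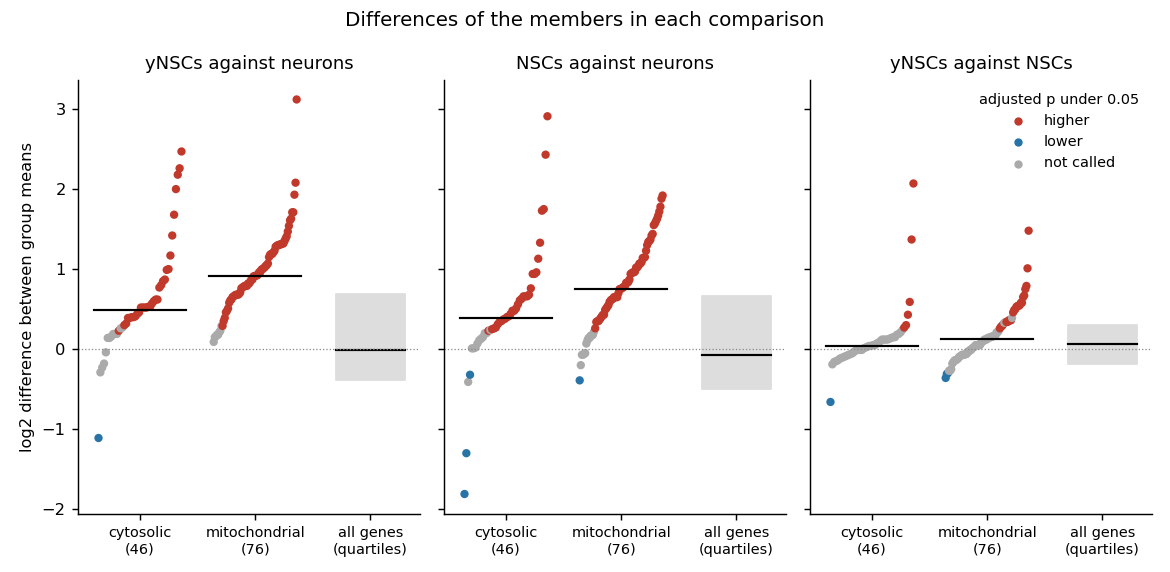
Log2 difference of every cytosolic and mitochondrial ribosomal protein in the 3 comparisons, with 1 point per gene coloured by its call and a line at the median; the grey box spans the quartiles of all genes. Against neurons the mitochondrial medians, 0.91 in yNSCs and 0.75 in NSCs, lie above the cytosolic ones, 0.49 and 0.39, and all mitochondrial points of yNSCs against neurons are above 0.

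Mrps6, a mitochondrial small subunit protein, had the widest difference of any member. It read 13.01, 13.02 and 12.98 in yNSCs, 11.68, 11.41 and 11.47 in NSCs, and 9.94, 9.93 and 9.79 in neurons. The 3 groups did not overlap, with differences from neurons of 3.12 in yNSCs (SE 0.104, limma adjusted p = 1.25e-10) and 1.63 in NSCs (adjusted p = 3.28e-08). A second Mrps6 probe set differed by 2.59 and 0.8. In RefSeq, Mrps6 overlaps Slc5a3, the myo-inositol transporter. The Slc5a3 probe set itself read 12.65, 12.6 and 12.52 in yNSCs, 12.16, 11.97 and 11.94 in NSCs, and 8.88, 8.17 and 8.59 in neurons, so the 2 genes' shares of the Mrps6 signal cannot be told apart. Of the members, 19 mitochondrial and 3 cytosolic ones overlap another protein-coding gene in this way.

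Transcripts of other mitochondrial small subunit proteins were higher in both stem cell groups than in neurons by more than the family's median. Mrps28 read 9.71, 9.88 and 9.86 in yNSCs, 9.57, 9.55 and 9.85 in NSCs, and 7.76, 7.66 and 7.8 in neurons, a difference of 2.08 in yNSCs (SE 0.111, limma adjusted p = 7.77e-09) and 1.92 in NSCs (adjusted p = 1.48e-08). Mrps10 was 1.93 and 1.6 higher in yNSCs and NSCs, Mrps16, which is mutated in a human respiratory chain disorder, 1.71 and 1.67, Mrps30 1.63 and 1.78, and Mrps35 1.38 and 1.44. None of these overlapped between stem cells and neurons, but most genes did not either, and apart from Mrps35 they were picked partly for it. Mrps12, which lies at the decoding centre, was not called, with signals of 9.63, 9.76 and 9.63 in yNSCs, 9.57, 9.4 and 9.41 in NSCs, and 9.55, 9.49 and 9.53 in neurons. Mrps36, whose product was later assigned to the 2-oxoglutarate dehydrogenase complex, was not called either (0.09 in yNSCs, adjusted p = 0.567, and -0.07 in NSCs, adjusted p = 0.633).

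In the large subunit, Mrpl17 read 10.24, 10.37 and 10.38 in yNSCs, 10.45, 10.24 and 10.32 in NSCs, and 8.5, 8.69 and 8.66 in neurons. It was 1.71 higher in yNSCs (limma adjusted p = 2.31e-08) and 1.72 higher in NSCs (adjusted p = 2.06e-08). Mrpl45, which sits at the exit of the peptide tunnel, was 1.61 and 1.88 higher. Mrpl12, known also for binding the mitochondrial RNA polymerase, read 10.39, 10.53 and 10.54 in yNSCs, 10.82, 10.04 and 10.16 in NSCs, and 9.69, 9.79 and 9.6 in neurons. Its differences were 0.79 in yNSCs and 0.65 in NSCs, close to the family's medians, and the NSC array A was the highest of its group. Mrpl10, its partner at the base of the stalk, was 0.87 and 0.37 higher, and Mrpl11, also of the stalk, 0.51 and 0.35. In all 8 mitochondrial members were not called in yNSCs, among them Mrpl27, Mrpl28 and Mrpl43 of the large subunit, with differences up to 0.29. In NSCs 13 were not called.

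**Figure D4:**
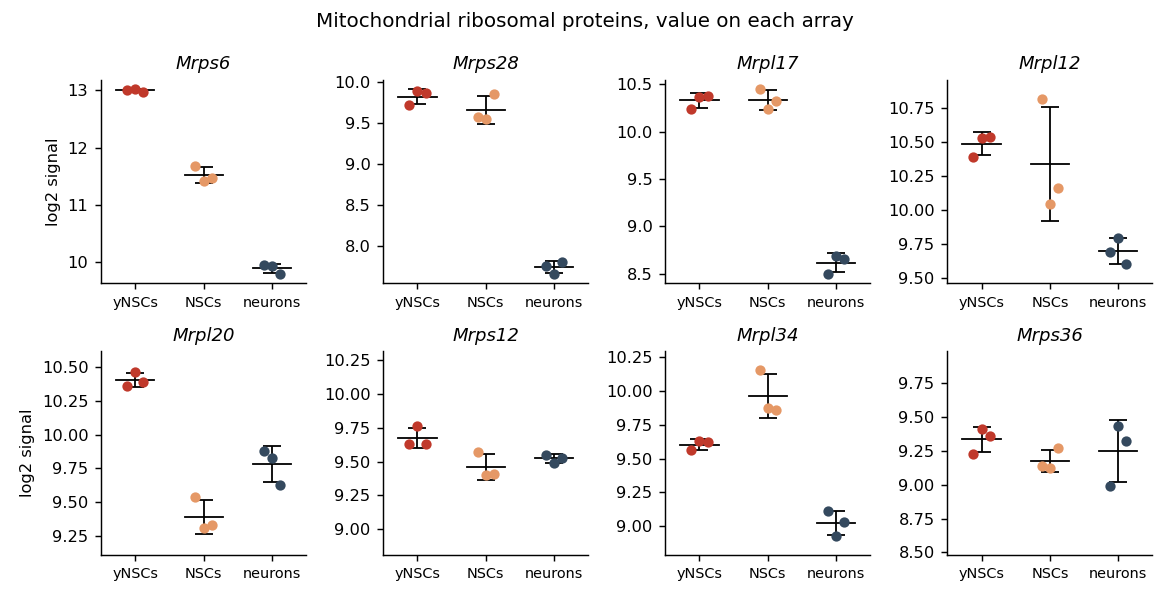
Log2 signal of 8 mitochondrial ribosomal proteins in each array, with 1 point per array, lines for group means, error bars of 1 SD (n = 3) and the groups in the order yNSCs, NSCs, neurons; each gene has its own scale. Mrps6 falls into 3 separate levels near 13, 11.5 and 9.9, Mrpl20 is lowest in NSCs, and the points of Mrps36 overlap.

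Between the 2 kinds of stem cell fewer members were called than against neurons. Of 46 cytosolic members 6 were higher in yNSCs than in NSCs and 1 lower (median 0.04), beside 21.3% of all genes higher and 18.0% lower (median 0.07). Of 76 mitochondrial members 24 were higher and 3 lower (median 0.13), which is 31.6% higher. Leaving out 1 array took the mitochondrial count to 13 higher and 1 lower without yNSC array B, 14 and 1 without yNSC array C, and 14 higher without NSC array B, and the count lower to 0 without yNSC array A. Without the NSC array A it was 26 higher and 2 lower. Relative to the median of all genes the cytosolic family was at -0.02 and the mitochondrial family at 0.06. Of the bright cytosolic members 1 of 33 was called higher, Rps14 of the small subunit (0.3, adjusted p = 0.0172), and 0 lower. These counts rest on the brightest probe set of each gene. Of all 100 cytosolic probe sets, with p-values adjusted over probe sets, 12 were higher and 9 lower. Other probe sets of bright members were called in both directions, among them Rpl13a (-0.79) and Rps3 (-0.89) lower and Rpl41 (0.98) higher.

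Of the 13 dimmer cytosolic members 5 were higher in yNSCs than in NSCs and 1 was lower. Rpl12, a large subunit protein at the base of the stalk, read 8.36, 8.36 and 8.67 in yNSCs, 6.9, 7.15 and 7.22 in NSCs, and 6.71, 6.72 and 6.92 in neurons. It was 1.37 higher in yNSCs than in NSCs (SE 0.127, limma adjusted p = 3.63e-06), and 1.68 higher than in neurons. NSCs overlapped neurons (0.31, adjusted p = 0.0493), and that small difference turned to -0.04 when the arrays were quantile-normalized again. Rpl27a, of the large subunit, read 9.74, 10.19 and 10.09 in yNSCs, 8.38, 7.35 and 8.08 in NSCs, and 9.96, 9.75 and 9.53 in neurons. The NSCs lay below both others (2.07 between yNSCs and NSCs, SE 0.227, adjusted p = 1.55e-05), with the widest replicate spread of any member in NSCs (SD 0.53, n = 3). Rps27 was 0.59 higher in yNSCs than in NSCs, Rps25 0.43 and Rps6 0.27 (adjusted p = 0.0437). Rpl14 was the single cytosolic member lower in yNSCs (-0.66, adjusted p = 0.00709), with yNSC arrays at 7.56 to 7.94 and NSC arrays at 8.22 to 8.67.

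Among 76 mitochondrial members, 2 were at least 2-fold higher in yNSCs than in NSCs, Mrps6 (1.48, limma adjusted p = 3.3e-07) and Mrpl20 (1.01). So were 2 of 46 cytosolic members and 6.06% of all genes, a share that neither family reached. Mrpl20, a large subunit protein, read 10.36, 10.46 and 10.39 in yNSCs, 9.54, 9.31 and 9.33 in NSCs, and 9.88, 9.83 and 9.63 in neurons. It was the single mitochondrial member lower in NSCs than in neurons (-0.39, SE 0.108, limma adjusted p = 0.00734), while it was 0.62 higher in yNSCs. Mrpl50 was 0.79 higher in yNSCs than in NSCs, Mrpl21 0.75, Mrps31 0.67 and Mrpl24 0.65. Their 6 arrays did not overlap, which was a condition for naming them. The other Mrpl50 probe set was not called (0.11, adjusted p = 0.505).

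The 3 mitochondrial members lower in yNSCs than in NSCs were Mrpl34 (-0.36, adjusted p = 0.0203), Mrpl58 (-0.31, adjusted p = 0.0181), the peptidyl-tRNA hydrolase of the large subunit, and Mrps2 (-0.3, adjusted p = 0.0486). For Mrpl34 and Mrps2 the second probe set of the gene went the other way, at 0.55 and 0.95 higher in yNSCs. With p-values adjusted over all probe sets in place of genes, the Mrps2 probe set called above was at an adjusted p of 0.0538 and no longer called. Nor were those of Mrpl14, Mrpl40, Mrpl46, Mrps14 and Rps6, counted as higher by gene (limma adjusted p from 0.0504 for Rps6 to 0.054 for Mrpl46). The mean over all of a gene's probe sets put Mrpl34 and Mrps2 at 0.1 and 0.32. By that adjustment, opposite calls between probe sets of a gene were found for 1 mitochondrial member in this comparison (Mrpl34), for 5 of the 42 with several probe sets in yNSCs against neurons and for 9 in NSCs against neurons, and for 1 cytosolic member (Rps24) in NSCs against neurons out of 23.

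Probe sets that name a cytosolic ribosomal protein beside other symbols were mostly higher in both stem cell groups than in neurons, as the single genes were. Of 110, 89 were higher in yNSCs than in neurons and 3 lower (median 0.45), beside 34.6% of all genes higher and 27.9% lower. In NSCs 86 were higher and 3 lower (median 0.49), beside 33.3% and 34.1%. Between yNSCs and NSCs 3 were higher and 11 lower (median -0.01), and of the 46 single genes 6 were higher and 1 lower. Both sets were below the 21.3% higher and 18.0% lower of all genes. All 4 such mitochondrial probe sets were higher in yNSCs than in neurons, and 3 in NSCs. Ribosomal proteins with other symbols were also higher: Fau, whose product is cleaved to a small subunit protein, by 0.58 in yNSCs and 0.54 in NSCs, Rps3a1 by 0.4 and 0.52, and the large subunit paralogs Rpl22l1 by 1.23 and 1.3 and Rpl7l1 by 1.28 and 1.19. Of the mitochondrial ones Dap3, a GTP-binding small subunit protein, was 0.72 and 0.83 higher, and Chchd1 1.28 and 1.56, while Gadd45gip1 of the large subunit was not called (-0.07 and -0.08).

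Genes that build cytosolic ribosomes were mostly higher in both stem cell groups. Of 60 nucleolar biogenesis genes measured, 52 were higher in yNSCs than in neurons and 2 lower (median 1.26), and 46 were higher in NSCs and 5 lower (median 1.09). The shares higher were 86.7% and 76.7%, beside 34.6% and 33.3% of all genes. The shares lower were 3.33% and 8.33%, beside 27.9% and 34.1%. Polr1e, a subunit of RNA polymerase I, read 8, 8.03 and 7.75 in yNSCs, 7.88, 7.12 and 7.24 in NSCs, and 5.06, 4.85 and 4.92 in neurons, with differences of 2.98 in yNSCs and 2.47 in NSCs and no overlap between stem cells and neurons. Lsg1, a GTPase of late large subunit maturation, was 2.3 higher in yNSCs and 1.61 in NSCs, Ddx21, a nucleolar RNA helicase, 2.29 and 2.09, and Dkc1, which makes pseudouridine in rRNA, 2.22 and 2.41. Fbl, the rRNA methyltransferase fibrillarin, was 1.04 and 1.09 higher. Rrp1 (-0.29 and -0.89) and Gnl3l (-0.45 and -0.76) were lower in both.

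Between yNSCs and NSCs 23 of these 60 genes were higher and 7 lower (median 0.23). That is 38.3% and 11.7%, beside 21.3% and 18.0% of all genes. Sbds, which releases eIF6 from the new large subunit, was 1.27 higher in yNSCs than in NSCs (limma adjusted p = 8.24e-06), 0.81 higher in yNSCs than in neurons and lower in NSCs than in neurons (-0.46). The 2 largest subunits of RNA polymerase I ran the other way: Polr1a read 6.61, 6.59 and 6.59 in yNSCs, 7.83, 7.45 and 7.26 in NSCs, and 5.89, 5.57 and 5.97 in neurons, and was lower in yNSCs than in NSCs (-0.92, adjusted p = 0.000378), as was Polr1b (-0.85, adjusted p = 0.00492). NSC array A was the highest of its group for both. The 18S rRNA control probe sets read 12.15 to 13.18 in yNSCs, 9.73 to 11.7 in NSCs and 11.59 to 13.4 in neurons. They read rRNA carried into the labelled RNA and are no measure of ribosome number, and their part in the results was not tested.

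Factors of mitochondrial translation and ribosome assembly were mostly higher as well. In yNSCs 37 of 47 were higher than in neurons and 3 lower (median 0.72), and in NSCs 32 were higher and 3 lower (median 0.62). The shares higher were 78.7% and 68.1%, beside 34.6% and 33.3% of all genes. Between yNSCs and NSCs 15 were higher and 5 lower (median 0.19), which is 31.9% and 10.6%, beside 21.3% and 18.0% of all genes. Tfb1m, which dimethylates the mitochondrial small rRNA, was 1.97 higher in yNSCs and 1.74 in NSCs, Nsun4, an rRNA methyltransferase that acts in joining the subunits, 1.9 and 1.84, and Tufm, the mitochondrial elongation factor Tu, 0.91 and 0.58. Ngrn, a factor for the mitochondrial large rRNA, was lower in both (-0.96 and -1).

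Cytosolic translation factors were mostly higher in both stem cell groups than in neurons. Of 32 initiation genes 23 were higher and 3 lower in yNSCs (median 0.72), 23 higher and 2 lower in NSCs (median 0.58), and 9 higher and 5 lower between yNSCs and NSCs. The 23 are 71.9% of the list, beside 34.6% and 33.3% of all genes. The 9 and 5 are 28.1% and 15.6%, near the 21.3% and 18.0% of all genes. Eif4ebp1, the mTOR-regulated repressor of cap-dependent initiation, had the widest difference of the list, 3.66 in yNSCs (SE 0.169, limma adjusted p = 2.17e-09) and 3.37 in NSCs. Of 14 elongation and other TOP mRNA genes 10 were higher in yNSCs and 1 lower (median 0.61), 11 and 1 in NSCs (median 0.56), and 3 and 4 between yNSCs and NSCs. Those higher than in neurons are 71.4% and 78.6% of the list. The 3 and 4 are 21.4% and 28.6%, beside 21.3% and 18.0% of all genes. The one lower than in neurons was Eef1a2, the form of elongation factor 1 alpha found in neurons and muscle (-2.24 and -2.97). Its widespread counterpart Eef1a1, itself a TOP mRNA, was not called: it read 13.85, 13.86 and 13.88 in yNSCs, 13.86, 14.03 and 13.89 in NSCs, and 13.85, 13.81 and 13.88 in neurons. These signals lie near the highest value of any array (14.46), where a like reading does not show a like transcript level. Tpt1, another TOP mRNA, was not called either (0.08 and 0.03), and Pabpc1, the poly(A)-binding protein, was 0.53 and 0.61 higher.

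Genes that set ribosome supply, among them MYC proteins and members of the mTOR pathway, were called in both directions. The list mixes activators with inhibitors such as Deptor (-1.84 in yNSCs and -1.86 in NSCs), so its counts and medians give no direction for ribosome supply. Of 25, 9 were higher and 8 lower in yNSCs (median 0.05), which is 36% and 32% and near the 34.6% and 27.9% of all genes. In NSCs 13 were higher and 8 lower (median 0.48), which is 52% and 32%, beside 33.3% and 34.1%. Between yNSCs and NSCs 3 were higher and 11 lower (median -0.39), which is 12% and 44%, beside 21.3% and 18.0%. Myc, an activator of ribosomal protein and rRNA genes, read 8.83, 8.83 and 8.88 in yNSCs, 9.65, 9.69 and 9.8 in NSCs, and 7.13, 7.2 and 7.37 in neurons, and its level in yNSCs lay between the others (-0.87 against NSCs, adjusted p = 2.43e-05). Mycn, its close relative, read 4.9, 4.56 and 4.42 in yNSCs, 5.68, 6.55 and 6.51 in NSCs, and 9.51, 9.15 and 9.3 in neurons, lowest in yNSCs. Larp1, which binds TOP mRNAs, was -0.18 in yNSCs against neurons (adjusted p = 0.129), 0.35 higher in NSCs and lower in yNSCs than in NSCs (-0.53).

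**Figure D5:**
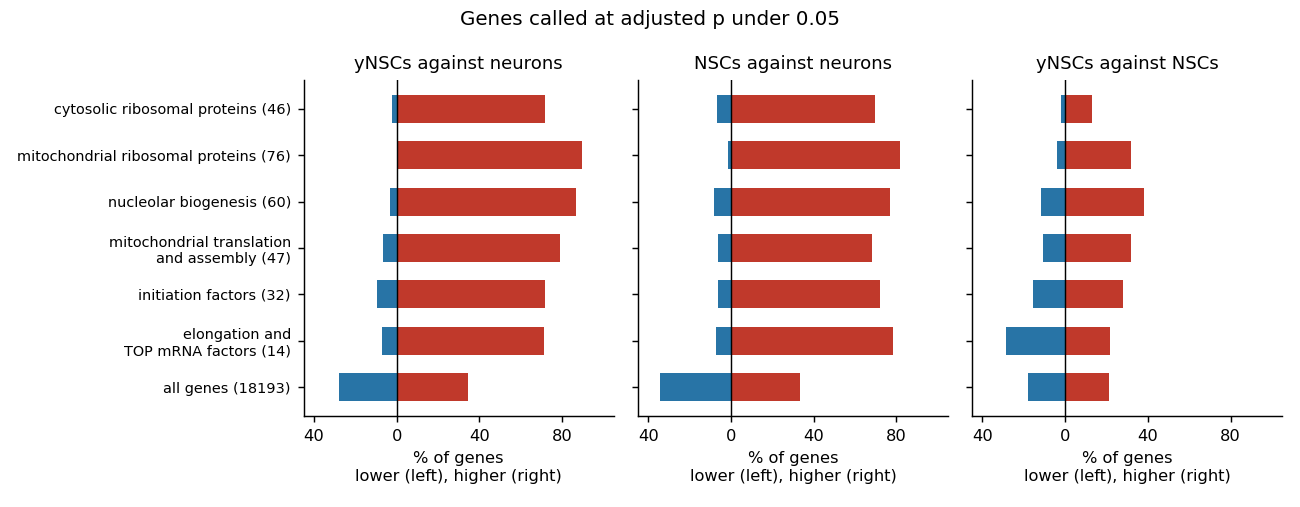
Share of each gene list called higher or lower in the 3 comparisons, for both families and 4 lists of related genes, beside the same over all genes. Against neurons the mitochondrial family reaches 89.5% higher in yNSCs and 81.6% in NSCs, the cytosolic family 71.7% and 69.6%, and all genes 34.6% and 33.3%.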

How the data were processed

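Total RNA (Trizol) was labelled as biotinylated cRNA and hybridised to Affymetrix Mouse430_2 arrays. Deposited values are log2 signals per probe set from RMA, run by the authors with a version not given in the sources used here, and were not scaled further. Probe sets were named through the platform annotation. Those with 1 symbol were kept, and the one of highest mean stood for its gene. limma 3.58.1 in R 4.3.3 fitted 3 group means to all 9 arrays (two-sided contrasts, Benjamini-Hochberg over 18193 genes), and was tested on simulated data. Named members were, per comparison and family, the 6 called of largest difference in each direction without overlap, 2 not called and a set of known ones. Of related lists they were the 3 of largest difference in each direction. Mrpl43, Mrps36, Rpl13a, Rpl37a, Rps2, Rps3, Rps7, Rps9, Rps18, Rps24, Rps28, Rps29, Eef1a1, Fbl, Gadd45gip1, Pabpc1, Rps3a1, Tpt1 and Tufm were named after their values were seen. Members and lists were chosen with earlier results of these data known. Near background means a group mean under its arrays' mean lower quartile. Replicate letters did not pair the arrays (correlations of same-letter deviations from -0.11 to 0.1). Sequences and starts are RefSeq's (GRCm38.p6).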

Additional observations from a re-analysis of the deposited data

How the results depend on the processing

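Against neurons both families kept their direction under every alternative, and the size of the shift depended on scaling. Subtracting each array's median over all genes gave medians of 0.3 (yNSCs) and 0.25 (NSCs) for the cytosolic and 0.73 and 0.62 for the mitochondrial family, with 4 cytosolic members lower in yNSCs and 2 mitochondrial members lower in NSCs. With the median over bright genes the cytosolic counts were 20 higher and 5 lower in yNSCs and 20 and 6 in NSCs (medians 0.19 and 0.13), and the mitochondrial medians 0.61 and 0.5, with 6 lower in NSCs and 5 lower in yNSCs against NSCs. All genes lower then numbered 9288 in yNSCs and 9492 in NSCs. Quantile normalization again gave 0.32 and 0.28 for the cytosolic and 0.62 and 0.48 for the mitochondrial family, with 5 lower in NSCs. The mean of all probe sets gave 0.52 and 0.42, and 0.78 and 0.59. Leaving out probe sets ending in _x_at or _s_at gave cytosolic medians of 0.57 and 0.48 and, in yNSCs against NSCs, 0.07, and leaving out the 40% of genes of lowest mean gave 0.52 and 0.42. A trended robust prior gave 2 cytosolic members lower in yNSCs than in neurons. At least 2-fold, 8 and 6 of 46 cytosolic and 32 and 25 of 76 mitochondrial members were higher, beside 18.3% and 18.6% of all genes. In NSCs 0 mitochondrial members were lower by that rule.

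In yNSCs against NSCs the cytosolic median was 0 under both median scalings. The mean of all probe sets gave a median of 0.01 with 3 cytosolic and 0 mitochondrial members lower, the trended prior 10 cytosolic higher and 4 lower, and the 2-fold minimum 2 higher and 0 lower in each family. Single genes that changed direction were, in NSCs against neurons, Mrpl50 (-0.04), Rpl12 (-0.04) and Ptcd3 (0) with quantile normalization, Rps14 (-0.03) with bright-gene scaling, Mrpl33 (-0.12) and Eif5 (0.35) with the mean of probe sets, and Mrpl38 (-0.05) without _x_at and _s_at probe sets. In yNSCs against NSCs they were Mrpl34 (0.1) and Mrps2 (0.32) with the mean of probe sets and Grsf1 (0.37) without _x_at and _s_at probe sets. The cause of these changes was not tested.

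With 1 array left out, the cytosolic counts ran from 31 to 34 higher and 1 to 2 lower in yNSCs against neurons, 28 to 32 and 2 to 4 in NSCs against neurons, and 4 to 6 and 1 to 1 in yNSCs against NSCs, with medians of 0.46 to 0.49, 0.36 to 0.41 and 0.02 to 0.06. The mitochondrial counts ran from 66 to 70 higher and 0 to 0 lower, 59 to 62 and 1 to 1, and 13 to 26 and 0 to 3, with medians of 0.89 to 0.93, 0.7 to 0.78 and 0.07 to 0.18. The replicate block gave 32 cytosolic and 67 mitochondrial members higher in yNSCs against neurons, 31 and 61 in NSCs against neurons, and 5 and 20 in yNSCs against NSCs. Bright signal near the top of the range and dim probe sets near background limit the size of a difference that could be read.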
